A study of Mus musculus with 12 samples.

Results

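The autophagy machinery genes examined here are 39 mouse genes chosen by name for their function. No measured value was used as a criterion, but the choice was made with earlier results of these data known. Chromatin accessibility over them was read from ATAC-seq peak lists of primary cortical neurons of wild-type C57BL/6 embryos. ATAC-seq marks open chromatin as peaks, where the transposase Tn5 cut DNA most often. Neurons taken at embryonic day 18 received PBS (the vehicle), or preformed fibrils of α-synuclein (PFF), for 7 days. A further group received PFF for the same time to which MLi-2, a LRRK2 kinase inhibitor, was added for the last 5 days, and another received PFF with antisense oligonucleotides (ASOs) against the endosomal GTPases Rab5a and Rab5b in the last 3 days. For the MLi-2 and ASO libraries the free-text description says PBS while title, treatment label and series design say PFF; PFF was taken. There were 3 libraries per group, all 12 libraries carry the label of batch 1, and MLi-2 or Rab5 ASO without PFF was not among them. Peaks of the 12 libraries that overlapped by at least 1 bp were merged into 263562 regions, and those in the body of a member gene or up to 5 kb upstream of one of its transcription start sites (GENCODE vM21, GRCm38) were taken as its regions. This gave 332 member regions over 36 of the 39 genes, and Atg2a, Atg4a and Epg5 were not analysed here.

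Autophagy delivers cytoplasm and damaged organelles to lysosomes inside a double membrane, the autophagosome. Its proteins act in order. The ULK kinase complex starts the process, a lipid kinase complex around Beclin 1 and VPS34 marks the site, ATG9 and ATG2 supply membrane and lipid, and conjugation enzymes couple ATG8 proteins to the membrane, where cargo receptors bind them. Neurons depend on this pathway to clear aggregates such as those of α-synuclein. Some of its genes carry an element with the core CACGTG, which TFEB and TFE3 can bind.

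RefSeq promoter windows (GRCm38.p6, 250 bases before to 50 bases after a transcript start) were found by symbol for 31 of the 39 genes. CACGTG was in the windows of Atg3, Atg5, Atg7 and Atg14, that is 4 of 31 genes (12.9%), against 8.09% of the 27025 genes with a window counted in the same way. These windows are printed 5′ to 3′ on the strand of the gene with CACGTG in capitals, because this core lies inside or beside the peaks described next.
Atg3 promoter, chr16:45158579-45158878, plus strand: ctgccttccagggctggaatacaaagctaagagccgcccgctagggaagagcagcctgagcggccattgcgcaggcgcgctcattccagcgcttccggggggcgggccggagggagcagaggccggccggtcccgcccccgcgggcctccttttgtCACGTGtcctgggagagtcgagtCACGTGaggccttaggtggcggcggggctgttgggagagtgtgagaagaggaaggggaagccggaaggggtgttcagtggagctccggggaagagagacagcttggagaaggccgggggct
Atg5 promoter, chr10:44268089-44268388, plus strand: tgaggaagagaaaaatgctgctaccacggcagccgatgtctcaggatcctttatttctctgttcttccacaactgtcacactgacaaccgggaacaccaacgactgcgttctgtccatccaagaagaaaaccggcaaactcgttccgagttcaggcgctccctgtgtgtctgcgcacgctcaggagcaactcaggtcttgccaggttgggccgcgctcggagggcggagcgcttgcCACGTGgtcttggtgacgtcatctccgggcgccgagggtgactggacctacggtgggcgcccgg
Atg7 promoter, chr6:114670846-114671145, plus strand: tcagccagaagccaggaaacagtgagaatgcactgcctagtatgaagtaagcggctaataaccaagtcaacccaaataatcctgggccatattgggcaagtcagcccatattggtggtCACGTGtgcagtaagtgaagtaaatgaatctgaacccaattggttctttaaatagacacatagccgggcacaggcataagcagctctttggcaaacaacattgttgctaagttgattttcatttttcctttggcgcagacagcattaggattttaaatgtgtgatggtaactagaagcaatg
Atg14 promoter, chr14:47568385-47568684, minus strand: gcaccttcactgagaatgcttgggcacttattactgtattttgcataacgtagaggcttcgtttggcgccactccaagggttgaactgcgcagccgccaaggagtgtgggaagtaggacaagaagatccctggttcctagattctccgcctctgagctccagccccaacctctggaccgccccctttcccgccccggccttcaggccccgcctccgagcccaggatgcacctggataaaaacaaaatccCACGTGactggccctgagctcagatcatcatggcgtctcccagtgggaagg
In Atg3, which encodes the enzyme that transfers ATG8 proteins to lipid, the core occurred 2 times, starting 94 and 71 bases before the start. In Atg5, part of the complex that directs that transfer, it started 14 bases before the start, and in Atg14, a subunit that targets the VPS34 complex, it started 1 base before it. All 3 of these windows overlapped the main promoter region of their gene, which had a peak in all 12 libraries. The Atg7 window belongs to a RefSeq start that lies within the gene body and did not overlap the main Atg7 promoter region.

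A library had 137417 to 184717 peaks, and the median peak had 16 to 18 fragments over its summit, a number recovered from the deposited fold and p-value. Depth relative to the mean of the 12 libraries, inferred from the same values, was 0.912 to 0.976 in PBS, 0.775 to 0.919 in PFF, 0.957 to 1.03 with MLi-2 and 1.05 to 1.31 with Rab5 ASO. The narrowest peak of a Rab5 ASO library was 53 to 59 bp wide and that of any other library 62 to 66 bp, so depth and width moved with the Rab5 ASO group, and their part in the results was not tested. Promoters of all 10 neuronal markers had a peak in 12 of 12 libraries, as had 4 of 5 astrocyte, 3 of 6 oligodendrocyte and 4 of 4 progenitor markers. Knockdown of Rab5a and Rab5b is not read out by peak lists. No microglial (0 of 5) and no endothelial (0 of 3) marker promoter had one in all 12. Of the marker promoters with a peak in all 12 libraries, the mean rank by fold within a library was lower in PFF than in PBS for 7 of 10 neuronal, 3 of 4 astrocyte, 4 of 4 progenitor and 1 of 3 oligodendrocyte markers. The median over all 18382 protein-coding promoter regions was also lower in PFF (-0.08 on the rank score described below). With Rab5 ASO, markers moved both ways against PFF, for example Rbfox3 from 56.4 to 65.9 and Stmn2 from 76.7 to 68.7. The part of the markers in the results was not tested.

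Of the 332 member regions, 93 were promoter regions (within 1 kb of a start site of the gene), 30 lay on exons, 204 in introns and 5 upstream. Promoter regions made up 28.01% of them, and 23.9% of the 154117 regions of all protein-coding genes sorted by the same rule. Atg7 (61 regions), Uvrag (52), Atg10 (42) and Ambra1 (25) held 54.2% of the member regions, whereas 21 of the 36 genes had 5 or fewer. These 4 genes span 188.7 to 288.6 kb, and the shortest, Map1lc3a (1.78 kb), had 1 region, its promoter.

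Promoter and intron regions differed in how often they were called. A peak was present in all 12 libraries in 51 of 93 promoter regions (54.8%) and 43 of 204 intron regions (21.1%), against 49.9% and 22.5% for all protein-coding genes. Regions seen in 1 library numbered 20 among promoters (21.5%, against 17.4% for all protein-coding genes) and 61 among introns (29.9%, against 28.7%). A member region lacking a peak in some libraries was therefore the usual case away from promoters. Each library held a peak in 157 to 198 of the 332 regions.

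The number of member regions with a peak was 171 ± 17.1 (SD, n = 3) in PBS, 189 ± 10.1 in PFF, 162 ± 2.65 with MLi-2 and 178 ± 11.4 with Rab5 ASO. For promoter regions these means were 61.7 ± 4.93, 67.3 ± 3.06, 60.3 ± 3.06 and 62.3 ± 2.52. The 3 PFF libraries had 64, 68 and 70 promoter regions and the 3 MLi-2 libraries 57, 61 and 63, so these groups did not overlap, while PBS (56, 64 and 65) and Rab5 ASO (60, 62 and 65) overlapped PFF. All regions separated in the same way, with 129205 to 147683 in the PFF and 121573 to 123480 in the MLi-2 libraries. Member regions were 0.130% ± 0.0128 of all regions with a peak in PBS, 0.135% ± 0.00240 in PFF, 0.132% ± 0.00305 with MLi-2 and 0.125% ± 0.00341 with Rab5 ASO. These counts were not tested.

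**Figure D1:**
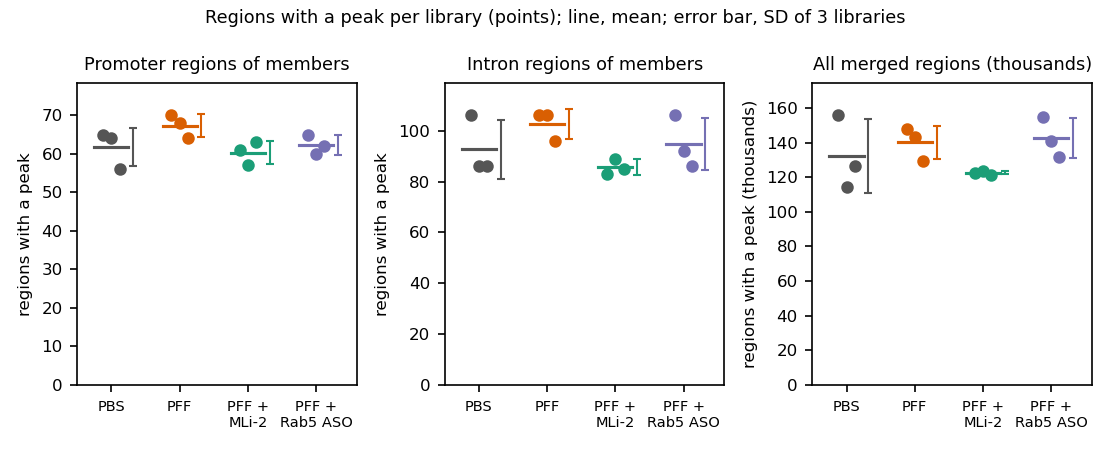
Number of regions with a peak in each library (points) for member promoter regions, member intron regions and all merged regions, with the mean of each group as a line and its SD as an error bar, n = 3. The 3 PFF libraries had 96 to 106 member intron regions and the 3 MLi-2 libraries 83 to 89, and all intron regions of protein-coding genes separated likewise (47132 to 54763 and 43624 to 43933).

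Every analysed gene had an open promoter in every library. Its main promoter region was the promoter region with a peak in the most libraries, and that region had a peak in 12 of 12 libraries for all 36 genes, as it had for 88.6% of the 15543 protein-coding genes with a promoter region. Height is given as fold percentile, the rank of the deposited fold enrichment of a region among all peaks of that library, with 100 as the highest. The median over the 36 genes was 95.7, with quartiles of 92.0 and 98.9. Over the 13766 protein-coding genes with such a region in all 12 libraries it was 92.4, with quartiles of 82.4 and 97.0. Of the members, 29 lay above 90, 6 between 80 and 90 and 1 under 80.

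Among the genes of initiation, the main promoter of Atg13, a regulatory subunit of the ULK complex, was highest at 99.5, and that of the kinase gene Ulk2 lowest at 85.7. Ulk1, Rb1cc1 (the FIP200 scaffold) and Atg101 lay between, at 92.9, 95.7 and 93.7. The Atg101 promoter stood at 90.8 to 92.1 in the PFF libraries and 95.1 to 96.4 in the Rab5 ASO libraries. It was 1 of 5 main promoters (13.9%; 18.4% of all 13766) that were higher in every Rab5 ASO library than in any PFF library, and 2 (5.56%; 5.54% of all), Atg10 and Pik3r4, were lower, shares at or below the background.

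By fold, promoters of the nucleation genes had the highest median of any role, 98.0. Pik3c3, which encodes the lipid kinase VPS34, had a promoter at 99.99, the highest of the 36 genes. Atg14 (99.7), Becn1 (98.9, Beclin 1) and Pik3r4 (97.1, the VPS15 subunit) followed. Ambra1, a regulator of Beclin 1, was at 92.3 and Uvrag, the alternative subunit to Atg14, at 88.4.

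The lipid transfer and membrane supply genes had a median of 95.9. Wdr45, which encodes a phosphoinositide-binding protein, was at 99.8, the lipid scramblase gene Atg9a at 97.5 and Wipi2 at 96.7. Wdr45b was at 95.1, the lipid transfer gene Atg2b at 93.0 and Wipi1 at 86.6.

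The 9 analysed conjugation genes lay close together, from 94.1 for the protease gene Atg4b to 99.0 for Atg7, which encodes the activating enzyme of both conjugation systems. Atg10, whose enzyme attaches ATG12 to ATG5, had the widest range of group means among them in percentile points, 4.72. Its promoter had fold percentiles of 96.6, 97.0 and 98.5 in PBS, 96.5, 96.8 and 97.7 in PFF, 94.7, 95.8 and 97.3 with MLi-2, and 91.2, 92.9 and 93.8 with Rab5 ASO. All 3 Rab5 ASO values lay below every other library.

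By fold, the ATG8 genes had the lowest median of any role, 83.8, and the widest range. Gabarapl2 was at 99.2, Map1lc3a at 90.3, Map1lc3b at 83.8, Gabarapl1 at 83.4 and Gabarap at 67.1. The Gabarap promoter had fold percentiles of 70.1, 71.1 and 73.0 in PBS, 64.2, 68.4 and 69.8 in PFF, 52.7, 67.3 and 69.4 with MLi-2, and 64.4, 67.1 and 67.8 with Rab5 ASO. Every PBS library was thus above every other library, and the low MLi-2 mean (63.1 ± 9.07) came with 1 library at 52.7. Gabarapl1 stood at 87.7 ± 0.370 in PBS and 79.6 ± 6.11 in PFF, and Map1lc3b at 86.5 ± 2.17 and 81.6 ± 2.56 (SD, n = 3). In PFF vs PBS, 7 of the 36 main promoters (19.4%; 10.9% of all 13766) were lower in every PFF library than in any PBS library, namely Atg101, Ulk1, Wipi1, Gabarap, Gabarapl1, Map1lc3a and Map1lc3b, and 3 (8.33%; 4.36% of all) were higher, namely Atg3, Atg4b and Atg16l1. The smallest unadjusted p of the 36 was 0.0538, for Gabarapl1 (adjusted p = 0.522, limma), so none of these differences passed.

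Cargo receptor promoters ranged from 87.0 for Sqstm1, whose product binds ubiquitinated cargo, to 98.9 for Calcoco1. Tax1bp1 was at 98.8, Nbr1 at 92.1 and Optn, which encodes optineurin, at 91.7. Optn had group means of 92.1 ± 2.29 in PBS, 91.1 ± 1.82 in PFF, 89.0 ± 2.27 with MLi-2 and 94.4 ± 2.15 with Rab5 ASO. The range of the 4 group means exceeded 5 percentile points for 3 of the 36 genes, Gabarap (8.30), Gabarapl1 (8.02) and Optn (5.45), and its median was 2.17, against 2.88 over all protein-coding main promoters. The order of roles depends on the scale. Ranked by the deposited -log10 p-value in place of fold, the role medians lay closer together, from 95.1 for the ATG8 genes to 97.97 for the cargo receptors, with nucleation at 97.8, and Gabarap, lowest by fold, stood at 91.1, above Gabarapl1 (86.6), Optn (89.6) and Ambra1 (90.4). Pik3c3 was highest on both scales. The main promoter regions of 10 members also lie within 1 kb of the start of another gene (for example Atg9a with Ankzf1, Sqstm1 with Mgat4b and Nbr1 with Brca1), and peaks there cannot be assigned to one of the pair.

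**Figure D2:**
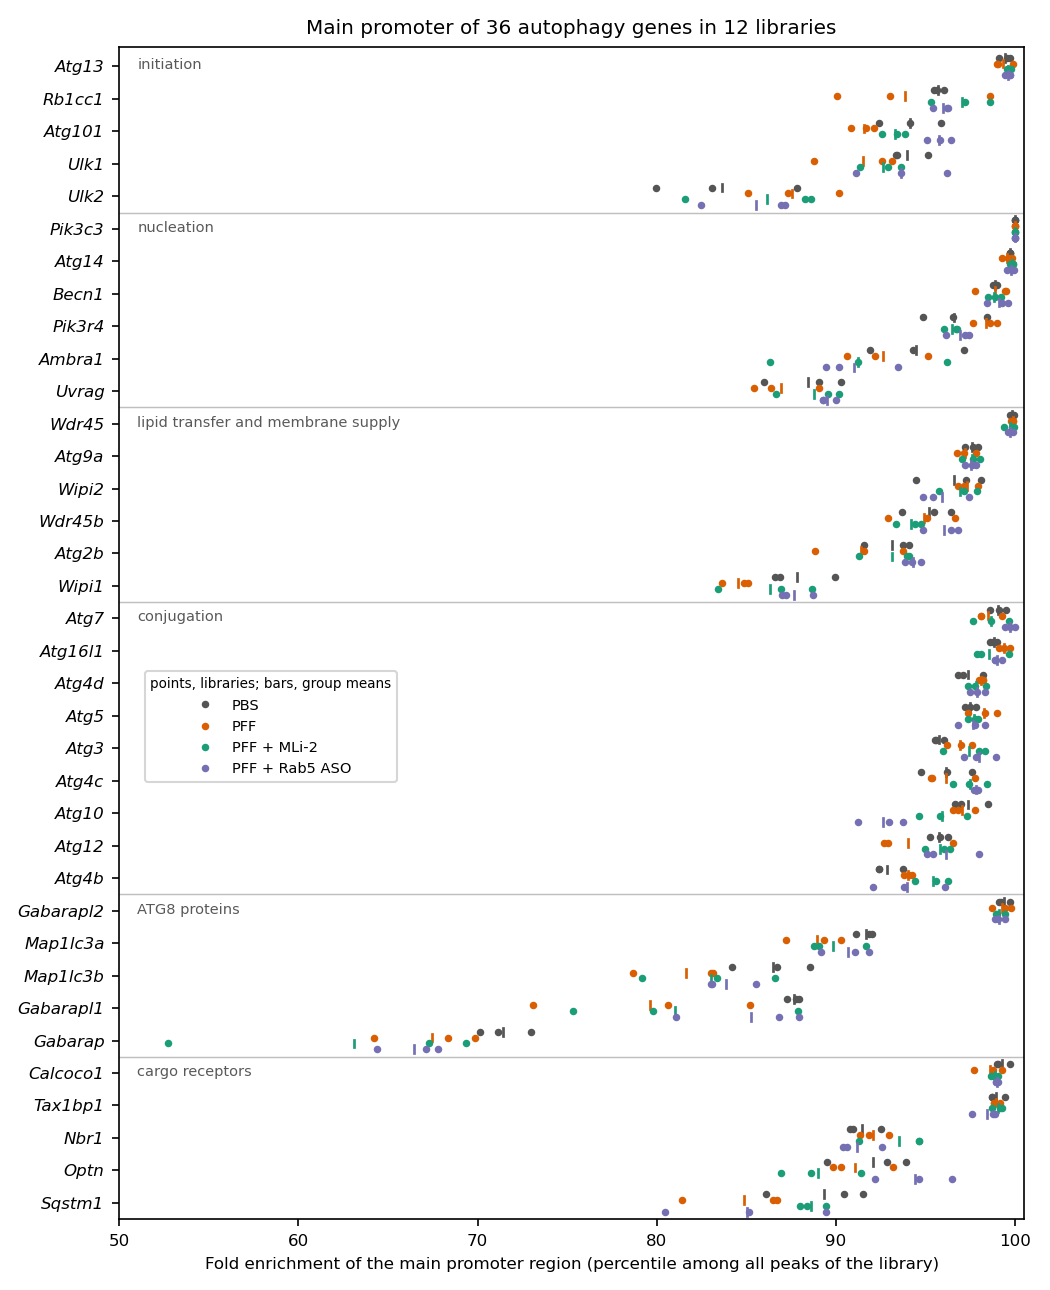
Fold percentile of the main promoter region of the 36 genes, grouped by role, with 1 point per library coloured by group and a bar at each group mean. The conjugation genes lie between 94.1 and 99.0 on average, and Gabarap, at 67.1, lies farthest left.

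The other 57 promoter regions of the members, at alternative starts or beside the main one, had a peak in all 12 libraries in 15 cases and in 1 library in 20, and the 15 had a median percentile of 48.9. Intron regions present in all 12 libraries had a median percentile of 68.0. Their SD within a group was 9.83 percentile points in the median, against 1.74 for promoter regions, so a difference of a given size in percentile stands out less in an intron.

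Base composition followed the class. The 300 bases around the summit of the main promoter regions had a median GC content of 63.0% and 26 CpG sites, against 64.7% and 25 for all protein-coding genes. Around the summits of the 43 intron regions the medians were 47.0% and 3, against 48.3% and 4. CACGTG occurred in 4 of the 36 main promoter windows (11.1%, in Atg3, Atg5, Atg14 and Uvrag) and in 10.4% of all. TCACGTGA, which contains CACGTG, was found in Atg3 alone of the 36 (2.78%, against 1.86%). GCGCATGC, the motif of NRF1, was in 5 of 36 (13.9%, in Atg7, Atg10, Wipi2, Wdr45 and Tax1bp1) and in 5.61% of all, and the ETS motif CCGGAAGT in 3 (8.33%) and 8.10%. The forkhead motif GTAAACA and the AP-1 motif TGACTCA were in 1 main promoter each (2.78%), against 2.10% and 2.83% of all. In the introns, TGACTCA was in 7 of 43 windows (16.3%, against 9.49% of 22849 intron windows) and CACGTG in 4 (9.30%, against 4.98%). All motifs were searched on both strands, and these shares were not tested.

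The effect of each treatment was examined in 5 comparisons: fibrils against vehicle, each treatment with PFF against PFF, and each against PBS. Comparisons that share the PBS or PFF libraries are not independent. A region counted as gained when it had a peak in 3 of 3 treated and 0 of 3 reference libraries, and as lost in the reverse case. With 3 libraries against 3 no exact p can fall below 0.1, so these are counts set beside all regions. For the 105 member regions with a peak in all 12 libraries, height was tested by limma on rank scores, where an effect of 1 is 1 standard deviation of the score, with p-values adjusted by Benjamini-Hochberg over all 72408 such regions.

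PFF vs PBS asks what fibrils changed. A main promoter, with a peak in all 12 libraries, cannot be gained or lost by this rule. Of 290 member regions with a peak in either group, 2 were gained (0.690%; 1.1% of all 216815 regions) and 1 was lost (0.345%; 0.404% of all). The gained regions were a side peak of the Gabarapl2 promoter (chr8:111939948-111940152), 140 bp from its main region, and an Atg7 intron region (chr6:114778694-114778875). The Gabarapl2 side peak had fold percentiles of 45.7, 58.5 and 20.5 in PFF and no peak in the 3 PBS libraries. It was also present in all 3 Rab5 ASO libraries and in 1 MLi-2 library, at 3.19. The Atg7 region had values of 12.5, 58.8 and 38.4 in PFF, was present in 2 MLi-2 and 3 Rab5 ASO libraries, and was absent from PBS. The lost region lay at -628 bp from the gene start of Atg14 (chr14:47571184-47571369). Its PBS peaks were near the bottom of their lists, at 6.75, 1.11 and 9.06.

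By height, 0 of 105 member regions passed an adjusted p of 0.05 in PFF vs PBS (0% of all regions), and 9 (8.57%) had an unadjusted p under 0.05, against 9.71% of all. None of the 9 was a main promoter, and 5 were among the 43 introns (11.6%, against 11.3% of introns of all protein-coding genes). The smallest p was that of an Atg10 intron region 260.7 kb from the gene start (chr13:90963160-90963421). It had fold percentiles of 15.3, 44.2 and 25.9 in PBS and 67.6, 73.5 and 66.5 in PFF. The groups did not overlap, with an effect of 1.20 ± 0.278 (SE) and an adjusted p of 0.243 (limma). The region 4.9 kb upstream of Atg10 was also higher in all 3 PFF libraries (45.6 to 60.1) than in PBS (3.90 to 34.6), with an adjusted p of 0.348. An exon region of Rb1cc1 (chr1:6272331-6272530) and an Atg4c intron region (chr4:99235301-99235491) were lower in each PFF library than in any PBS library, with effects of -0.65 and -0.69 and adjusted p of 0.337 and 0.351. So was an Atg10 intron region 130.1 kb from the gene start (effect -0.75, adjusted p = 0.351).

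PFF+MLi-2 vs PFF asks whether LRRK2 inhibition altered the fibril-treated state. Of 279 member regions, 0 were gained (0.374% of all 205066 regions) and 4 were lost (1.43%; 1.64% of all). The lost regions were an Atg7 intron region (chr6:114846395-114846652), a Pik3c3 intron region (chr18:30332545-30332687), a region at an internal start of Uvrag (chr7:99015455-99015695) and a side peak of the Gabarap promoter (chr11:69991759-69991881). The Atg7 region had values of 25.1, 69.8 and 60.5 in PFF and was present in 1 PBS and 2 Rab5 ASO libraries. The Pik3c3 region was present in all PBS (17.7 to 65.2) and PFF (18.5 to 63.5) libraries and in no MLi-2 library. It was therefore also the 1 member region lost in PFF+MLi-2 vs PBS (0.382% of 262 member regions; 0.577% of all 200721 regions), where 0 were gained (0.226% of all). The Gabarap side peak was among the lowest of each PFF list, at 0.14, 0.61 and 0.51.

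No member region passed an adjusted p of 0.05 in PFF+MLi-2 vs PFF (0% of all regions). An unadjusted p under 0.05 was reached by 10 of 105 (9.52%; 11.4% of all), and none of them was a main promoter. Of these, 9 were among the 43 introns (20.9%, against 13.3% of introns of all protein-coding genes). An Atg10 intron region 130.1 kb from the gene start (chr13:91093703-91093952) had fold percentiles of 53.7, 38.4 and 53.6 in PFF and 70.7, 71.3 and 72.7 with MLi-2, an effect of 0.97 ± 0.211 (SE, adjusted p = 0.209, limma). In PBS it had 77.7, 60.4 and 64.9. The MLi-2 values thus lay within the PBS range and above all PFF values. A second Atg10 intron region (chr13:91179606-91179777) was lower with MLi-2, at 25.6, 62.3 and 47.6 against 80.5, 72.0 and 80.3 in PFF (effect -1.02, adjusted p = 0.281). A side peak 664 bp downstream of a Gabarapl1 start (chr6:129534042-129534387) had 32.7, 35.0 and 58.3 with MLi-2 and 22.1, 18.6 and 5.5 in PFF (effect 0.95, adjusted p = 0.284).

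In PFF+MLi-2 vs PBS, 0 of 105 passed the adjusted threshold (0% of all regions) and 8 (7.62%) had an unadjusted p under 0.05, against 5.77% of all. The same Gabarapl1 side peak had the smallest p. Its PBS values were 10.2, 6.2 and 11.03, all below the MLi-2 values, with an effect of 1.08 ± 0.258 (SE) and an adjusted p of 0.816 (limma). An Ambra1 intron region (chr2:91779286-91779486) was lower with MLi-2 (39.9, 66.0 and 44.4) than in PBS (82.2, 71.0 and 85.8), with an effect of -1.06 and an adjusted p of 0.816.

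PFF+Rab5 ASO vs PFF gave the most member calls of the comparisons with PFF. Of 289 member regions, 5 were gained (1.73%; 2.63% of all 230672 regions) and 4 were lost (1.38%; 1.94% of all). By class, 0 of 86 member promoter regions and 4 of 170 member introns (2.35%) were gained, against 0.616% of promoter and 2.65% of intron regions of all protein-coding genes, so these counts are near the background. Among exon regions 1 of 28 was gained (3.57%, against 1.72%). The gained regions were 2 introns of Atg7, 2 introns of Atg10 and an exon of a short Tax1bp1 transcript. The Atg10 region chr13:91079701-91079888 had values of 39.4, 70.3 and 57.6 with Rab5 ASO and no peak in any of the other 9 libraries. The Tax1bp1 region chr6:52760435-52760640, at 76.4, 28.3 and 50.4, and the Atg7 region chr6:114708203-114708303, at 14.5, 11.98 and 37.3, were likewise present in the 3 Rab5 ASO libraries alone. The second Atg7 region (chr6:114858836-114858927) had low peaks (3.11 to 15.5), and the second Atg10 region (chr13:91086633-91086781) was present in 2 PBS libraries as well.

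Lost with Rab5 ASO were intron regions of Atg4c (chr4:99213265-99213425), Atg10 (chr13:90993054-90993248) and Ulk1 (chr5:110802299-110802513), and the Gabarap side peak lost with MLi-2. The Atg4c region had 66.0, 49.99 and 43.4 in PFF and was present in 2 PBS libraries and 1 MLi-2 library. The Ulk1 region, 7.69 kb into the kinase gene, had 53.3, 53.5 and 46.2 in PFF and 33.3, 35.1 and 25.02 with MLi-2, was present in 2 PBS libraries and in no Rab5 ASO library. The Atg10 region had the same pattern of presence.

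The 4 gained or lost regions with the highest fold percentiles in the group that held the peak are printed on the plus strand of GRCm38 with the 21 bases around the median summit in capitals, to show the bases concerned.
Atg10 region, chr13:91079701-91079888, plus strand: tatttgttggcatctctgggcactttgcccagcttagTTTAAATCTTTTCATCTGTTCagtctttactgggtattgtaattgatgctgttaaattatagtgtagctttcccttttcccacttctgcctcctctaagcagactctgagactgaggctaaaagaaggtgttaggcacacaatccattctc
Atg4c region, chr4:99213265-99213425, plus strand: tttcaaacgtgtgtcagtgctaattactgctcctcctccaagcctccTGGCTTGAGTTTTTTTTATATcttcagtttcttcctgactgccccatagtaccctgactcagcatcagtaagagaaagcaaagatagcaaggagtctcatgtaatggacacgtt
Atg7 region, chr6:114846395-114846652, plus strand: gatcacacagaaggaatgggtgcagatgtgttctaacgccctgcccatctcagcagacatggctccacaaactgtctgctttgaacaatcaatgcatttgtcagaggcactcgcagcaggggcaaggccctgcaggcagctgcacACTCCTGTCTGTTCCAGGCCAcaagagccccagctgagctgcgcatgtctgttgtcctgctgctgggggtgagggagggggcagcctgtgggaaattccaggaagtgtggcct
Tax1bp1 region, chr6:52760435-52760640, plus strand: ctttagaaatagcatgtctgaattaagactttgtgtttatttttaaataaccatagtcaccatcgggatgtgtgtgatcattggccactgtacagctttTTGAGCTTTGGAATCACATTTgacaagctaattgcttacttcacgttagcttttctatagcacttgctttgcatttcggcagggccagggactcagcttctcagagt
TGACTCA lies in the Atg4c region, and none of the other 5 motifs occurs in these 4 regions. Their GC contents were 41.0%, 43.5%, 57.8% and 39.8%. All 18 distinct member regions gained or lost in any comparison had summit pileups of 9 to 28 fragments, against a median of 16 to 18 over all peaks of a library.

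**Figure D3:**
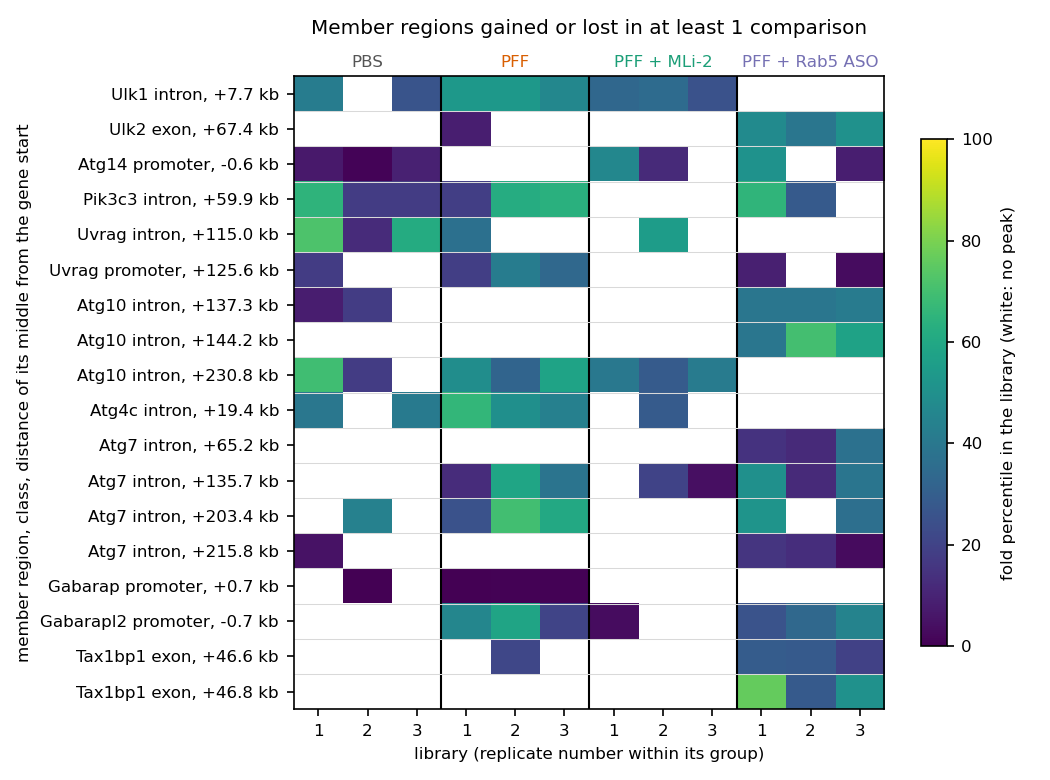
Fold percentile of the 18 member regions gained or lost in at least 1 comparison (rows, with class and distance from the gene start) in the 12 libraries (columns); white marks a library without a peak. Of the 18, 11 are introns, and the main promoters, with a peak in every library, could not enter.

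By height, 2 of 105 member regions passed an adjusted p of 0.05 in PFF+Rab5 ASO vs PFF (1.90%; 3.82% of all regions), and 17 (16.2%) had an unadjusted p under 0.05, against 21.1% of all. The first was a side peak of the promoter shared by Atg9a and Ankzf1 (chr1:75192562-75192736), 104 bp from the main region and on the first exon of Ankzf1. Its fold percentiles were 53.0, 44.97 and 39.4 in PFF, 10.6, 1.2 and 4.8 with Rab5 ASO, 44.7, 41.9 and 46.6 with MLi-2 and 24.6, 43.3 and 3.1 in PBS. The side peak fell with Rab5 ASO, with an effect of -1.29 ± 0.220 (SE, adjusted p = 0.0219, limma), while 1 of the 3 PBS libraries was as low as the Rab5 ASO libraries. The main Atg9a promoter region stood at 97.2 ± 0.527 in PFF and 97.5 ± 0.3004 with Rab5 ASO (SD, n = 3).

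The second was an Atg10 intron region 45.1 kb from the gene start (chr13:91178703-91179120), which rose. It had 80.2, 75.5 and 70.3 in PFF and 94.4, 88.8 and 94.0 with Rab5 ASO, an effect of 1.00 ± 0.211 (SE, adjusted p = 0.0367, limma). All 3 Rab5 ASO values were above those of the other 9 libraries, which ran from 65.9 to 85.1. With any 1 of the 6 libraries left out, 0 member regions passed the threshold, and when blocked on replicate number the Atg9a side peak passed (limma adjusted p = 0.0376) and the Atg10 region did not (0.0561). Next in order were an Ambra1 intron region (chr2:91878894-91879093; effect -0.90, adjusted p = 0.0531), a Wipi2 intron region (lower, adjusted p = 0.0566) and an Atg7 intron region (effect 0.98, adjusted p = 0.0827), none of which passed.

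Among main promoters, Atg10 was lower (effect -0.56, limma adjusted p = 0.133) and Atg7 higher (effect 0.77, limma adjusted p = 0.142) with Rab5 ASO than with PFF, and neither passed, although their unadjusted p-values were under 0.05. These 2 genes code for the enzymes that act in turn to form the ATG12-ATG5 conjugate. The Atg7 promoter had 99.3, 98.1 and 98.1 in PFF and 99.97, 99.4 and 99.7 with Rab5 ASO.

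In PFF+Rab5 ASO vs PBS, 7 of 270 member regions were gained (2.59%; 2.59% of all 227307 regions) and 1 was lost (0.370%; 0.992% of all). The 7 were the Atg7, Atg10 and Tax1bp1 regions seen in the 3 Rab5 ASO libraries alone, the Atg7 and Gabarapl2 regions already gained in PFF vs PBS, a second Tax1bp1 region 2 bp from the first, and an Ulk2 exon region (chr11:61787574-61787807; 48.0, 39.3 and 50.4). By class, 1 of 76 promoter (1.32%), 3 of 26 exon (11.5%) and 3 of 164 intron regions (1.83%) were gained. Over all protein-coding genes these shares were 0.878%, 2.04% and 2.66%. Both Tax1bp1 regions lie on the same exon. The lost region was a Uvrag intron region (chr7:99026093-99026213) with 72.0, 12.3 and 61.7 in PBS, present in 1 PFF and 1 MLi-2 library.

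By height, 2 of 105 passed an adjusted p of 0.05 in this comparison (1.90%; 1.63% of all regions), and 22 (20.95%) had an unadjusted p under 0.05, against 18.7% of all. An Atg7 intron region 72.2 kb from the gene start (chr6:114715201-114715420) rose. It had fold percentiles of 12.5, 4.1 and 4.6 in PBS, 10.2, 16.9 and 38.5 in PFF, 33.2, 12.6 and 7.4 with MLi-2 and 49.98, 63.2 and 52.9 with Rab5 ASO. Each Rab5 ASO library was above the other 9, with an effect of 1.46 ± 0.224 (SE, adjusted p = 0.0273, limma). A neighbouring Atg7 region (chr6:114714749-114715058) was also higher in every Rab5 ASO library than in any PBS library (effect 0.82, adjusted p = 0.0745).

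A Wipi2 intron region 20.7 kb from the gene start (chr5:142648290-142648532) fell. It had 80.9, 74.6 and 84.5 in PBS, 83.7, 76.6 and 69.4 in PFF, 82.7, 70.3 and 68.8 with MLi-2 and 54.9, 61.2 and 30.99 with Rab5 ASO, and its effect was -1.21 ± 0.250 (SE, adjusted p = 0.0449, limma). The 3 Rab5 ASO values lay below all others. Wipi2 encodes a phosphoinositide-binding protein that recruits ATG16L1. With any 1 library left out, neither region passed, nor did they when blocked on replicate number (limma adjusted p = 0.0745 for Atg7 and 0.0873 for Wipi2). The Atg10 intron region at 260.7 kb, with 84.9, 64.3 and 71.2 under Rab5 ASO, did not pass (effect 1.42 ± 0.310, adjusted p = 0.0516), nor did the region upstream of Atg10 (effect 1.31, adjusted p = 0.0625).

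The sequences of the regions with the smallest p in each of these comparisons, chosen after their values were seen, follow in the same form, the Atg7 intron region first and the Atg9a side peak second.
Atg7 region, chr6:114715201-114715420, plus strand: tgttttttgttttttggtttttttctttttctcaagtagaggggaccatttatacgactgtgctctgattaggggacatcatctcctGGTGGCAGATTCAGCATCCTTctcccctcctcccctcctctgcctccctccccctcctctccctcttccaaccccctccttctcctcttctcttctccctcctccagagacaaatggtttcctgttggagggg
Atg9a region, chr1:75192562-75192736, plus strand: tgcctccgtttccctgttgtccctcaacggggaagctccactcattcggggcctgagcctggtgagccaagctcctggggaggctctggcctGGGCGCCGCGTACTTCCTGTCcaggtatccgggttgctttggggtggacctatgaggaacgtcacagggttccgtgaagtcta
None of the 6 motifs occurs in either, and the Atg9a side peak, at 61.7% GC, was closer in composition to a promoter than the Atg7 region at 50.9%.

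**Figure D4:**
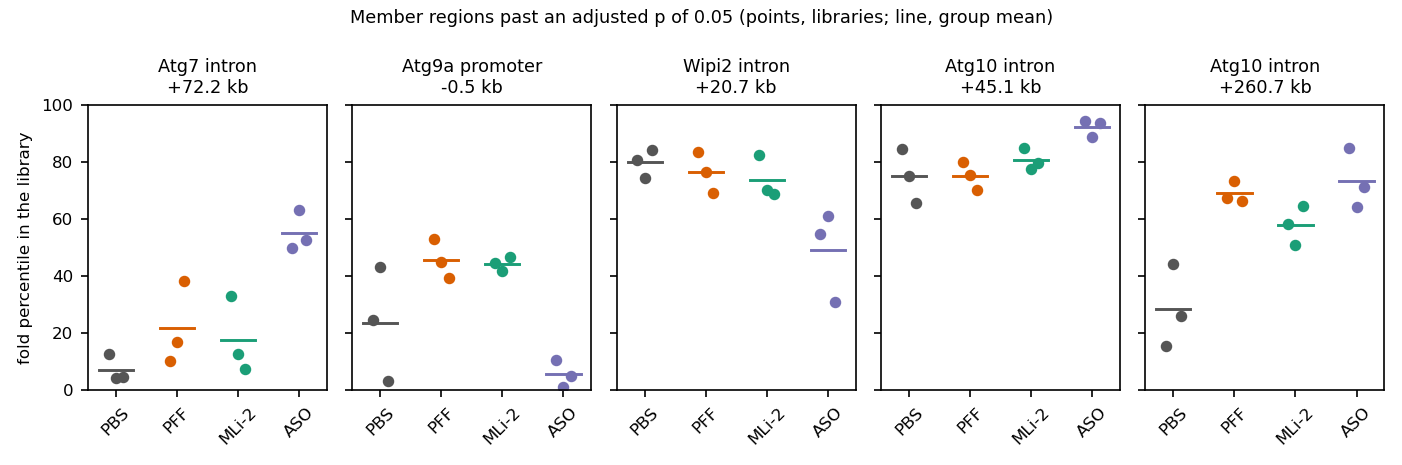
Fold percentile in each library (points) and group mean (line) of the 5 member regions past an adjusted p of 0.05 in a pairwise test or over the 4 groups, with the distance of each from its gene start. In the Atg7 and Wipi2 regions and the Atg10 region at 45.1 kb all 3 Rab5 ASO points lie outside the range of the other 9.

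Over the 4 groups together (limma F-test), 4 of 105 member regions passed an adjusted p of 0.05 (3.81%; 3.5% of all regions). They were the Atg7 (adjusted p = 0.0379), Wipi2 (0.0421) and Atg9a (0.0434) regions and the Atg10 intron region at 260.7 kb (0.0384). Blocking on replicate number left 0 of the 4 past it (limma adjusted p from 0.0516 to 0.0615), and leaving out 1 library gave 0 to 3 calls. An unadjusted p under 0.05 was reached by 21 (20%; 21.7% of all). Of these, 15 were among the 43 introns (34.9%, against 26.2% of introns of all protein-coding genes) and 4 among the 51 promoter regions (7.84%, against 10.3%). A single main promoter, that of Atg10, was among the 21 (limma adjusted p = 0.154).

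**Figure D5:**
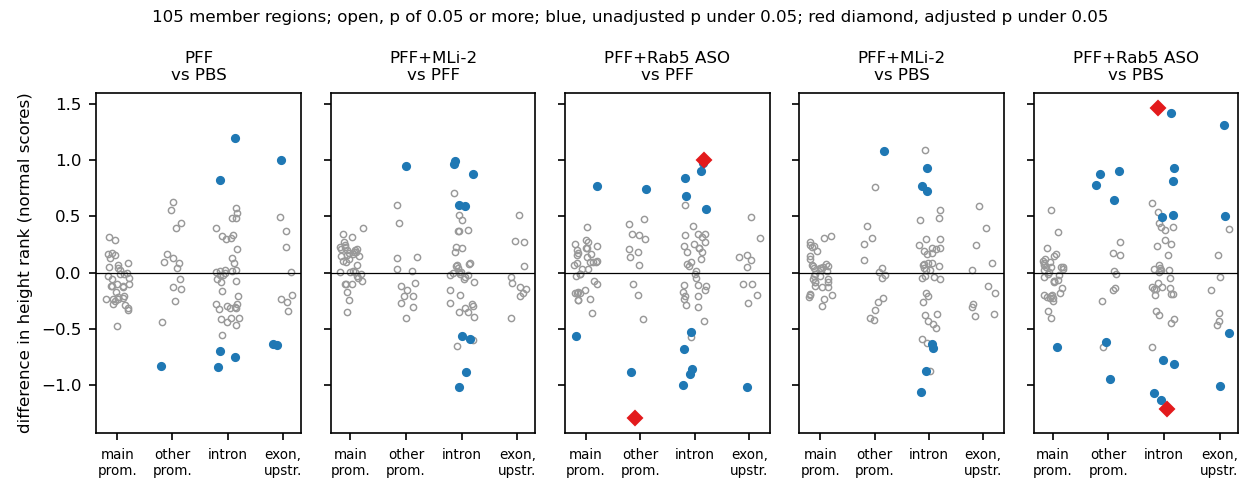
Difference in height rank (normal scores) of the 105 tested member regions in the 5 comparisons, by class (open circles, unadjusted p of 0.05 or more; blue, under 0.05). Main promoters lie between -0.66 and 0.77, and introns between -1.21 and 1.46; red diamonds mark the 2 regions past an adjusted p of 0.05 in each comparison of Rab5 ASO.

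Estimated effects were smaller in absolute size at promoters than in introns, among the members as among all protein-coding genes. Nearly all of them did not pass the adjusted threshold, and absolute values include scatter between libraries. Whether the classes differ in their response was not tested. The median absolute effect of the 51 member promoter regions was 0.158 for PFF, 0.126 for PFF+MLi-2 and 0.161 for PFF+Rab5 ASO, each set against PBS, and 0.163 for PFF+MLi-2 and 0.182 for PFF+Rab5 ASO set against PFF. For the 43 introns these medians were 0.306, 0.258, 0.338, 0.296 and 0.274. Over all protein-coding genes, in the same order, they were 0.170, 0.138, 0.176, 0.183 and 0.193 for promoter regions and 0.236, 0.207, 0.314, 0.247 and 0.314 for introns. The signed median of the 51 member promoter regions was -0.05 for PFF against PBS, and 0.10 for MLi-2 and 0.09 for Rab5 ASO against PFF. The medians of all 18382 protein-coding promoter regions were -0.08, 0.09 and 0.07, with the same signs.

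Of 28 further genes of the pathway, among them genes of mTOR and AMPK signalling, of fusion with lysosomes and of mitophagy, 26 had regions, and their main promoters had a peak in all 12 libraries, with a median percentile of 96.9 (85.0 to 99.6). Among their 71 tested regions, 2 fell in PFF+Rab5 ASO vs PFF (3.82% of all regions passed there), introns of Zfyve1 (effect -0.88, adjusted p = 0.0445) and of Vps41, a subunit of the HOPS tethering complex (effect -1.30, adjusted p = 0.0492, limma). The Vps41 region also fell in PFF+Rab5 ASO vs PBS (effect -1.21, adjusted p = 0.0321; 1.63% of all regions passed there). When blocked on replicate number these calls had limma adjusted p of 0.0622, 0.0598 and 0.0762, and none passed. With 1 library left out they ran from 0.0811 to 0.116 for Zfyve1, and for Vps41 from 0.0458 to 0.127 against PFF and from 0.0610 to 0.0920 against PBS. None passed in the other 3 comparisons, where 9 regions (12.7%) had an unadjusted p under 0.05 for PFF against PBS, 6 (8.45%) for MLi-2 against PFF and 3 (4.23%) for MLi-2 against PBS, against 9.71%, 11.4% and 5.77% of all regions.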

How the data were processed

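Peaks had been called by the authors in each ATAC-seq library on its own, after trimming with Trim Galore 0.6.7 and alignment to GRCm38 with Bowtie2 2.5.1, using MACS2 2.2.7.1, per the submitters' processing notes. Peak-caller options, duplicate handling and any Tn5 shift are not given in the sources used here, and each would change peak width and number. The deposited lists hold for each peak its summit, a score, the fold enrichment as a ratio to the background, and the p-value and q-value, both as -log10. The deposited score was not used. Of 1916151 peaks, 1440 lay outside chromosomes 1 to 19, X and Y and were dropped.

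Peaks were merged with a minimum overlap of 1 bp and assigned to genes in the order promoter, exon, intron, upstream. Where a library had several peaks in a region, the one with the highest fold was used. Summit pileup was recovered from fold and p-value and was whole (tolerance 0.1) for 100% of peaks. Heights were ranked by fold over the 72408 regions present in every library, turned into normal scores and fitted with limma 3.58.1 in R 4.3.3 (lmFit, eBayes, two-sided, 6 libraries per comparison, no covariate), after tests on simulated data. The rest used pandas 2.3.3, numpy 2.4.6, matplotlib 3.10.9 and scipy 1.17.1 under Python 3.11.15. Named were each main promoter, every gained or lost region, and per comparison the 5 smallest p-values and all adjusted p under 0.05. The members, the other pathway genes and the marker and motif lists were chosen with earlier results of these data known. In the study's methods a pregnancy is the biological replicate, and cultures from it were divided among the groups. The sources used here do not say whether a library's replicate number names its pregnancy. The limma fit has no block, and fits with the number as a block are given beside the calls they change. The exact p of 3 against 3 libraries cannot fall below 0.1. The 3 genes without values, and columns of read counts, were not analysed here. Alternatives tried were equal numbers of top peaks, a q-value limit, 2 of 3 libraries, a minimum cover, a replicate block, a fit of all 12 libraries, other height scales, other gene windows and leaving out each library.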

Additional observations from a re-analysis of the deposited data

How the results depend on the processing

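No named pairwise height effect changed sign under the alternatives tried for it. These regions had been named for their small p, so a change of sign was unlikely from the start. Counts of gained and lost regions moved most when 2 of 3 libraries against 0 sufficed: gained became 12 for PFF against PBS, 2 for MLi-2 and 14 for Rab5 ASO against PFF, and 6 for MLi-2 and 17 for Rab5 ASO against PBS, and lost became 4, 18, 19, 10 and 12. With equal numbers of top peaks, lost fell to 2 for MLi-2 against PFF and 0 against PBS. With a -log10 q-value of at least 3, lost was 0 in PFF vs PBS. With peaks covering at least 25% of a region, gained was 3 in PFF vs PBS and lost was 2 in PFF+Rab5 ASO vs PBS. With 1 library left out (2 against 3), gained ranged over 3 to 10, 0 to 1, 5 to 9, 0 to 4 and 7 to 12, and lost over 1 to 4, 5 to 12, 4 to 13, 1 to 7 and 1 to 7, in the same order of comparisons; fewer libraries have to hold the peak or lack it there.

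Member regions past an adjusted p of 0.05 stayed at 0 in the 3 comparisons without Rab5 ASO. In PFF+Rab5 ASO vs PFF there were 3 in a fit of all 12 libraries, 3 on centred log2 fold and 1 with a replicate block (the Atg10 intron region then had 0.0561), while against PBS these were 6, 4 and, with a replicate block, 0 (Atg7 0.0745, Wipi2 0.0873). The F-test gave 4 by -log10 p-value, 6 on log2 fold and 0 with the replicate block. Leaving out 1 library gave 0 to 0 in both pairwise comparisons and 0 to 3 in the F-test. Over all alternatives, those without 1 library included, adjusted p ran from 0.0297 to 0.0609 for the Atg9a side peak, 0.0253 to 0.107 for the Atg10 region, 0.0193 to 0.0815 for the Atg7 region and 0.0212 to 0.130 for the Wipi2 region in their own comparison. Over all regions the replicate block gave 1668 calls in place of 2767 for Rab5 ASO against PFF and 0 in place of 1180 against PBS. Same-numbered libraries deviated together weakly (r 0.00519 to 0.0790, each under 0.1; other numbers -0.0708 to 0.0149). In 29 of 30 cases a library correlated best with its own number, a hint from the data and not from the labels, and whether the numbers pair the libraries is not known.

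Windows of 2 kb upstream left 1 upstream region, and promoters within 500 bp gave 10; other region counts stayed within 1.5 times. The median main promoter percentile in PBS, PFF, MLi-2 and Rab5 ASO was 95.9, 96.1, 95.9 and 96.4; it was 97.4, 97.7, 97.2 and 97.6 by -log10 p-value, and with equal top peaks 95.3, 95.4, 95.6 and 95.5. Ranked by -log10 p-value, 109 group means of single main promoters moved by more than 1 SD and 35 did not. The weakest gained or lost peak had 9 fragments at its summit, so absence of a peak there does not show closed chromatin.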
